A study of Mus musculus with 3 samples.

Results

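The 9 genes described here are matrix metalloproteinases (*Mmp9*, *Mmp12*, *Mmp14* and *Mmp19*), ADAM proteases (*Adam10* and *Adam17*) and tissue inhibitors of metalloproteinases (*Timp1*, *Timp2* and *Timp3*) of the mouse. They were picked by gene symbol in GENCODE M21, the gene annotation that names the transcripts of the mRNA table. 7 of the 9 genes had rows in that table, with 18 listed transcripts of 56651 in all, and 15815 genes had rows. *Timp1* and *Timp3* had none and were not analysed here. Of the 7 with rows, 5 (*Mmp9*, *Mmp19*, *Adam10*, *Adam17* and *Timp2*) had at least 20 reads over the 3 libraries, as did 12691 of the 15815 genes with rows.

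The series followed the RNA of apoptotic bodies (ABs), the membrane-bound fragments that dying cells shed, along osteoclast differentiation. The 3 libraries hold 1 each of ABs from bone marrow macrophages (BMM-ABs), preosteoclasts (pOC-ABs) and mature osteoclasts (mOC-ABs). The parental cells of all 3 came from the marrow of C57BL/6 mice aged 11 weeks. After 24 h of marrow culture, the cells left floating were kept for 72 h in M-CSF, the survival factor of macrophages, at 50 ng/mL. RANKL, the cytokine that drives osteoclast formation, was added at 100 ng/mL with M-CSF at 30 ng/mL, for 24 h before pOC-ABs and for 72 h or longer before mOC-ABs. The labels name alendronate at 500 µM for 12 h as the inducer of apoptosis in all 3 groups. The study's methods name staurosporine instead, and a longer time in RANKL for mature osteoclasts. They also give a higher M-CSF dose beside RANKL (50 ng/mL) and a shorter culture in M-CSF to obtain the macrophages. The sample titles name cells, whereas the series speaks of ABs, and the libraries were read as ABs. Each group is 1 library, so no difference below has a replicate check or a p-value. For the same reason all intervals cover counting error only, and they leave out any error in the split of reads among transcripts. The reads carry no molecular identifiers, so copies of the same molecule are not told apart and the intervals may be too narrow.

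Matrix metalloproteinases (MMPs) are zinc-dependent enzymes that cut collagens, other matrix proteins and signalling molecules outside the cell. ADAMs are related membrane-anchored proteases that clip the outer parts of other membrane proteins, a step called shedding. TIMPs are small secreted proteins that block the active site of both families, with TIMP3 the main tissue inhibitor of ADAM17. In bone, MMP9 is a classic product of osteoclasts and helps them migrate and resorb. ADAM17 sheds tumor necrosis factor and the M-CSF receptor from macrophages, and MMP14 activates other MMPs at the cell surface.

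The stretch that holds the catalytic zinc is what the 6 proteases share, and it is shown to let the families be compared. In each, the 33 coding bases below are the only match of the transcript to the zinc-binding consensus of this enzyme superfamily. Capitals mark the codons of the 3 histidines that hold the zinc.
Mmp9: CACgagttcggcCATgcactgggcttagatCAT
Mmp12: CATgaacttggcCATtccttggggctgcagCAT
Mmp14: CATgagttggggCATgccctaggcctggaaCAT
Mmp19: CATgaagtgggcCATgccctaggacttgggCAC
Adam10: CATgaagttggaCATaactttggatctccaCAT
Adam17: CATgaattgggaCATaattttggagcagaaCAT

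These are coding exon sequences of GENCODE M21 on the GRCm38 build. The *Mmp9* site lies at chr2:164951133-164951165 (plus strand, exon 8 of 13), that of *Mmp12* at chr9:7352914-7352946 (plus strand, exon 5 of 10) and that of *Mmp14* at chr14:54437627-54437659 (plus strand, exon 5 of 10). The *Mmp19* site lies at chr10:128795673-128795705 (plus strand, exon 5 of 9) and that of *Adam17* at chr12:21336732-21336764 (minus strand, exon 11 of 19). In *Adam10* an intron splits the site, between chr9:70754296-70754325 and chr9:70761583-70761585 (plus strand, exons 9 and 10 of 16). The sites of *Adam10* and *Adam17* were identical at 26 of 33 bases. The MMPs shared 21 to 25 bases with each other and 17 to 22 with the ADAMs. Of 21614 mouse genes with a complete start of the coding sequence, 69 (0.319%) hold this consensus, so the match marks the superfamily and not single members.

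Summed by family, the level per transcript length was highest for the ADAMs, then for the MMPs and then for the 1 TIMP with rows. The scale is FPKM, fragments per kilobase of transcript and per 1000000 fragments, summed over the transcripts of each gene. Where 3 values follow each other they stand in the order of differentiation, from BMM-ABs over pOC-ABs to mOC-ABs. The 2 ADAMs together reached 62.8, 38.0 and 46.1 FPKM. The 4 MMPs summed to 5.43, 5.75 and 10.1 FPKM. *Timp2*, the only TIMP with rows, was at 1.57, 1.31 and 1.99 FPKM. Most of the MMP sum in BMM-ABs and pOC-ABs was *Mmp19* (4.55 and 4.36 FPKM). The family sums thus do not place *Timp2* below each MMP. In BMM-ABs the order was *Adam17* (40.7 FPKM), *Adam10* (22.1), *Mmp19* (4.55), *Timp2* (1.57), *Mmp9* (0.48), *Mmp12* (0.33) and *Mmp14* (0.068), but the counting intervals of *Mmp9* (0.21 to 0.95 FPKM) and *Mmp12* (0.16 to 0.59) overlapped, as did those of *Mmp12* and *Mmp14* (0.0082 to 0.25). *Mmp9* was below *Timp2* in BMM-ABs and above it in mOC-ABs (4.61 FPKM), and in pOC-ABs (0.98 FPKM) their intervals overlapped (0.57 to 1.56 for *Mmp9*, 0.92 to 1.82 for *Timp2*). In mOC-ABs the counting intervals of *Adam10* (22.0 to 25.5 FPKM) and *Adam17* (20.8 to 24.1 FPKM) overlapped, and so did those of *Mmp19* (4.26 to 6.47) and *Mmp9* (3.78 to 5.58). Overlap of separate intervals is not a test of a difference, and neighbours with overlapping intervals were left unranked. The first place of *Adam17* in BMM-ABs rests on the transcript Adam17-203, described below, which held 30.7 of the 40.7 FPKM. Its protein-coding transcript Adam17-201 was at 6.53 FPKM there, below Adam10-201 at 21.15. The ADAM sum of 62.8 FPKM includes Adam17-203.

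**Figure D1:**
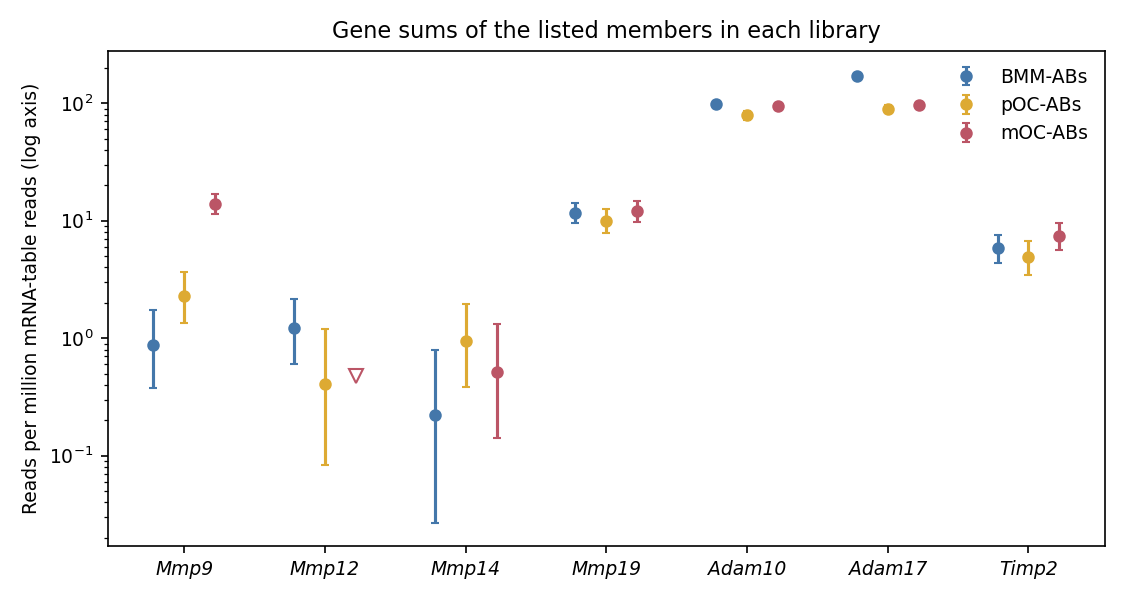
Reads per 1000000 reads (RPM) of the mRNA table (log axis) for the 7 genes with rows, by library; bars are exact 95% Poisson intervals of counting error and the open triangle is the upper bound for 0 reads of *Mmp12*. *Mmp9* climbs from 0.879 to 2.30 and 13.9 RPM, while *Adam10*, *Mmp19* and *Timp2* stay close to their starting level.

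Reads of a gene were summed over its transcripts and divided by the reads of the mRNA table, giving reads per 1000000 reads (RPM). The table held 9100082, 7387317 and 7705592 reads, so 3 reads are worth 0.330, 0.406 and 0.389 RPM. Comparisons are named as in the study: G1 is pOC-ABs against BMM-ABs, G2 is mOC-ABs against BMM-ABs and G3 is mOC-ABs against pOC-ABs. G1 and G2 share the BMM-AB library and are not independent. A ratio of RPM above 2 or below 0.5 is called past the limit, which is a size and not a test.

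*Mmp9*, which encodes gelatinase B, had the widest range of the 5 members with at least 20 reads. Its reads numbered 8 in BMM-ABs, 17 after 24 h of RANKL and 107 in mOC-ABs, or 0.879, 2.30 and 13.9 RPM. Only the mOC-AB library held it at more than a few RPM. The G2 ratio was 15.8-fold (95% interval 7.73 to 37.5), or 3.98 on the log2 scale (2.95 to 5.23). Of the 12691 genes with at least 20 reads, 58 (0.457%) had a higher G2 ratio. The G3 ratio was 6.03-fold (3.60 to 10.7), and the G1 ratio was 2.62-fold with an interval of 1.07 to 7.01. Most of the difference thus lay between pOC-ABs and mOC-ABs.

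Nearly all *Mmp9* reads lay on the protein-coding transcript Mmp9-201, with 7, 16 and 106 reads. The short retained-intron transcript Mmp9-202 had 1 read in each library. Because Mmp9-202 is 462 bases long, its 1 read weighs heavily in FPKM, and Mmp9-201 took only 50.5% of the summed FPKM in BMM-ABs. The FPKM of *Mmp9* (0.48, 0.98 and 4.61) accordingly spread less than its reads. With a pseudocount of 1 FPKM the log2 ratio was 1.92 in G2 and 0.42 in G1.

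The genes whose pair of log2 ratios lay nearest to that of *Mmp9* were *Src*, *Akr1b3* and *Acp5*, at Euclidean distances of 0.87, 0.88 and 1.09 over the 3 libraries. They were picked from 7248 protein-coding genes with at least 500 reads. *Src*, a kinase needed for the ruffled border of osteoclasts, had 118, 178 and 962 reads. *Acp5*, which encodes the osteoclast enzyme TRAP, had 88, 292 and 2157 reads. *Akr1b3*, an aldose reductase, had 539, 1188 and 3919 reads. All 3 genes were lowest in BMM-ABs and highest in mOC-ABs, which follows from picking them by nearness to *Mmp9*. *Atp6v0d2* came next at 1.14. The counting interval of *Mmp9* in G2 (2.95 to 5.23) was wider than these distances, so the order of the nearest genes was not resolved.

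**Figure D2:**
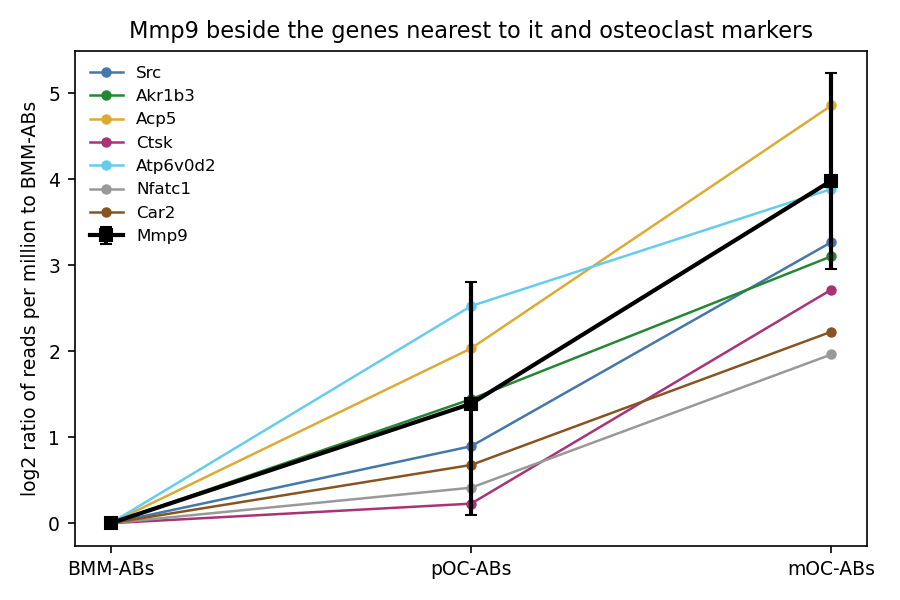
Log2 ratio of RPM to BMM-ABs (y axis) in the 3 libraries (x axis) for *Mmp9* (black, with 95% counting intervals), its nearest genes and osteoclast markers. *Mmp9* ends at 3.98 in mOC-ABs, between *Acp5* (4.86) and *Ctsk* (2.72), and every line is higher in mOC-ABs than in pOC-ABs.

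The labelled cell types were checked against marker genes. Of 10 osteoclast markers 9 had rows, with summed levels of 506, 837 and 2614 RPM. The 8 with at least 20 reads were all past the limit upwards in G2. In G1 only 3 of these 8 were past it upwards, with *Oscar* among them on 0 and 7 reads. *Dcstamp* (1.97-fold), *Ocstamp* (1.62-fold), *Car2* (1.60-fold), *Nfatc1* (1.33-fold) and *Ctsk* (1.17-fold) were higher in G1 without passing the limit. The log2 intervals of *Ocstamp* (-0.005 to 1.40) and *Ctsk* (-0.08 to 0.54) included 0. Among all genes with at least 20 reads, 4.81% were past the limit upwards in G1 and 4.12% in G2. *Itgb3*, a defining osteoclast integrin chain, had only 6, 3 and 0 reads, and *Calcr*, the calcitonin receptor, had no row. The 8 macrophage markers had rows in full, with summed levels of 2744, 1492 and 1409 RPM, so they were still read in mOC-ABs. None of the 10 neutrophil markers had a row. Stromal and osteoblast markers (4 of 10 with rows, *Col1a1* and *Col3a1* without) summed to 5.38, 5.41 and 3.89 RPM, and endothelial ones (4 of 6) to 16.9, 10.6 and 18.7 RPM. Lymphocyte markers (3 of 9) stayed between 0.389 and 0.989 RPM, and erythroid and megakaryocyte markers (1 of 9) between 0.649 and 1.87 RPM. *Mmp9* moved with the osteoclast markers, whose part in its ratio was not tested. In RNA pooled from many ABs, fewer cells of a type and less RNA per cell cannot be told apart.

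*Mmp12*, the macrophage elastase, went the other way on few reads. Its reads numbered 11, 3 and 0. With a floor of 3 reads (0.389 RPM) in place of the 0, the level in mOC-ABs was at least 3.10-fold lower than that of the 11 reads. The floor leaves out the counting error of the 11 reads, and the exact interval of the ratio, which includes it, ran from 0 to 0.471. The G1 ratio of 0.336 had an interval of 0.060 to 1.27, so a lower level in pOC-ABs was not shown at this depth. 10 of the 11 reads in BMM-ABs were on the protein-coding Mmp12-201, and the 3 reads in pOC-ABs were all on the retained-intron transcript Mmp12-206. No fold was formed for G3, as both libraries were at or under 3 reads. The *Mmp12* locus overlaps that of *Mmp1b*, a related gene with no row.

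*Mmp14*, the membrane-anchored collagenase MT1-MMP, was close to the limit of detection in all 3 libraries. Its reads numbered 2, 7 and 4, or 0.22, 0.95 and 0.52 RPM. The ratios were 4.31-fold in G1 (0.821 to 42.5) and 2.36-fold in G2 (0.339 to 26.1). Both pass the limit of 2, and both intervals include 1, so no difference was detectable at this depth.

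*Mmp19*, which cuts basement membrane proteins and aggrecan, was the MMP with the most reads in BMM-ABs and pOC-ABs and differed little. It had 106, 74 and 93 reads, or 11.6, 10.02 and 12.1 RPM. The log2 ratios of G1, G2 and G3 were -0.22, 0.05 and 0.27, with intervals of -0.67 to 0.22, -0.37 to 0.47 and -0.19 to 0.73. The libraries thus overlapped within counting error. What did differ was the transcript. Mmp19-203 had 67, 68 and 87 reads and Mmp19-201, an alternative protein-coding transcript, had 39, 6 and 6. Mmp19-201 took 36.8% of the gene's BMM-AB reads (95% Wilson interval 28.2 to 46.3), against 8.11% (3.77 to 16.6) of those from pOC-ABs and 6.45% (2.99 to 13.4) of those from mOC-ABs. The BMM-AB interval did not overlap the other 2. Both transcripts have 9 exons and share 7, and the last exon is 2120 bases long in Mmp19-201 and 1081 in Mmp19-203. The longer end reaches chr10:128800824, where the locus overlaps *Gm47093* on the opposite strand and *Tmem198b*. An lncRNA row also lies there, with 10, 13 and 10 reads. Whether the counting used strand is not given in the sources used here, so reads of these features cannot be told apart from those of Mmp19-201.

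*Adam10*, the sheddase of Notch receptors and amyloid precursor protein, was nearly level. It had 891, 580 and 725 reads, or 97.9, 78.5 and 94.1 RPM. The pOC-AB library was the lowest, where G1 was -0.32 (-0.47 to -0.17) and G3 was 0.26 (0.10 to 0.42) on the log2 scale. The G2 value was -0.06 (-0.20 to 0.09), and its sign turned with the summed FPKM (0.10) and with TMM scaling (0.01). The full-length transcript Adam10-201 held 884, 579 and 706 of the reads. A short protein-coding transcript, Adam10-203, was listed at 0, 0 and 15 reads, so all of its reads came from mOC-ABs. lncRNA rows inside the locus had 26, 16 and 21 reads and 3, 2 and 5 reads.

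*Adam17*, the tumor necrosis factor converting enzyme, was the member whose value depended on how its transcripts were counted. Summed over all 6 listed transcripts its reads numbered 1556, 655 and 736, or 171.0, 88.7 and 95.5 RPM. On this sum it was 1.93-fold lower in pOC-ABs and 1.79-fold lower in mOC-ABs than in BMM-ABs, just short of the limit. On the log2 scale G1 was -0.95 (-1.08 to -0.81), G2 was -0.84 (-0.97 to -0.71) and G3 was 0.11 (-0.05 to 0.26). The protein-coding transcript alone gave the opposite direction.

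Adam17-201, the only protein-coding transcript listed, had 264, 613 and 707 reads, or 29.0, 83.0 and 91.8 RPM. It was 2.86-fold higher in pOC-ABs and 3.16-fold higher in mOC-ABs than in BMM-ABs, with log2 ratios of 1.52 (1.31 to 1.73) and 1.66 (1.46 to 1.87). The BMM-AB library stood apart on Adam17-203, which is annotated as a target of nonsense-mediated decay (NMD), the pathway that removes mRNAs with an early stop codon. Adam17-203 had 1234 reads there, against 2 reads from pOC-ABs and 7 from mOC-ABs. It took 79.3% of the gene's BMM-AB reads (Wilson interval 77.2 to 81.2), against 0.305% (0.084 to 1.11) of those from pOC-ABs and 0.951% (0.461 to 1.95) of those from mOC-ABs. By FPKM its share in BMM-ABs was 75.3%.

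The transcripts differ by few bases, shown here because the assignment of reads rests on them. They share 17 of 19 exons. In Adam17-203 the first exon is 39 bases shorter, and exon 6 is 153 bases long instead of 134. The 19 added bases lie at chr12:21347431-21347449 (GRCm38, minus strand), and the reading frame meets a stop codon in the same exon, which cuts the coding sequence from 2481 to 666 bases. A further NMD transcript, Adam17-207, has 23 added bases in exon 16, at chr12:21329133-21329155, and a coding sequence of 1965 bases. Each pair begins with the last 24 bases of the preceding exon. Capitals mark the added bases and the stop codon they lead to.
Adam17-201 (exon 6): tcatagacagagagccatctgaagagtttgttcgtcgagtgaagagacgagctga
Adam17-203 (exon 6): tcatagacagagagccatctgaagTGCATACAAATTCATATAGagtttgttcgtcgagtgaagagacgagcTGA
Adam17-201 (exon 16): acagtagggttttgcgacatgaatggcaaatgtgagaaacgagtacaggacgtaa
Adam17-207 (exon 16): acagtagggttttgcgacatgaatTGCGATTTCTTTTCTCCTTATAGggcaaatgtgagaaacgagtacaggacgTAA

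Adam17-207 was listed at 0, 15 and 0 reads, in pOC-ABs alone. The retained-intron transcripts Adam17-208 (48, 22 and 18 reads) and Adam17-204 (9, 2 and 2 reads) and the NMD transcript Adam17-206 (1, 1 and 2 reads) made up the rest. The largest shift of an *Adam17* transcript's share of reads between libraries was 79.1 percentage points, for Adam17-201. A shift of 50 points or more in some transcript occurred in 9.61% of the 6378 genes with at least 2 listed transcripts and 500 reads, and 1.49% had a larger shift than *Adam17*. This yardstick was set after the values were seen. By reads the largest shift of *Adam10* was 2.45 points, and 83.1% of genes had a larger one. By FPKM the share of Adam10-201 was 95.8%, 99.0% and 84.2%, a wider spread than by reads. The deposited counts are the authors' split of reads among transcripts that share most of their sequence, and the part of that split in the *Adam17* values was not tested.

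**Figure D3:**
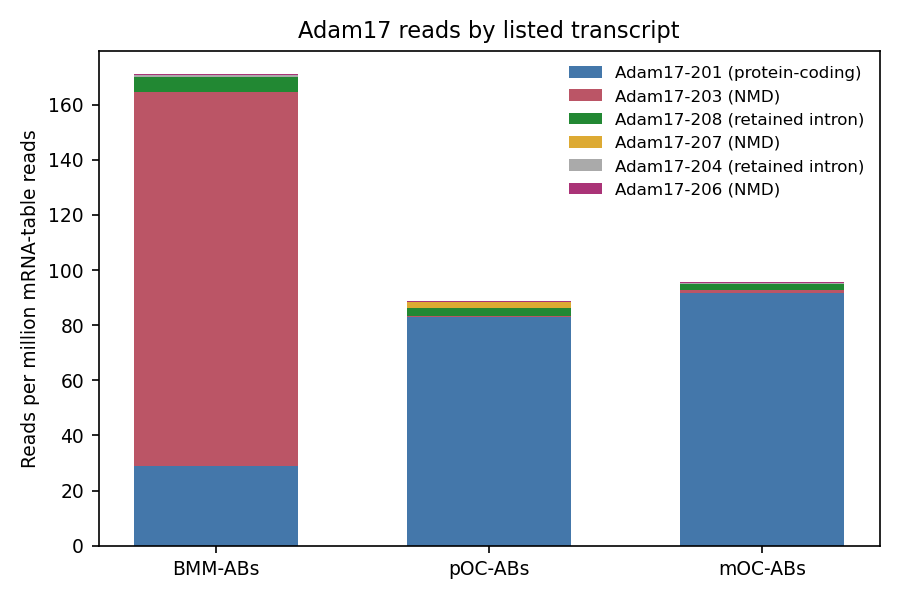
RPM of *Adam17* by listed transcript, stacked from 0, in the 3 libraries (1 for each group). The NMD transcript Adam17-203 fills 79.3% of the BMM-AB bar and almost none of the others, while the protein-coding Adam17-201 is at 29.0, 83.0 and 91.8.

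*Adam17* was also the only member with a circular RNA (circRNA), a product of back-splicing that joins the end of an exon to an upstream start. Of 1372 circRNAs in the deposited table, 1 had a member as host. It spans chr12:21329054-21332210 (minus strand), from exon 14 to exon 16, with a spliced length of 345 bases. Its junction was read 0, 4 and 0 times, so it was seen in pOC-ABs only, too few reads for a comparison. The sequence across the junction is shown with the first 20 bases of exon 14 in capitals after the last 20 of exon 16.
Adam17 circRNA junction: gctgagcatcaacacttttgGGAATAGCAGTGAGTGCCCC

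An lncRNA row overlapping the *Adam17* locus had 9, 6 and 4 reads. The locus also overlaps *Iah1*, on the opposite strand, and *Gm22766*. On the gene sum, the genes nearest to *Adam17* were *Lmf2* and *Slc30a5*, at distances of 0.007 and 0.018. *Lmf2* had 522, 220 and 248 reads, and *Slc30a5* had 711, 297 and 333. This likeness holds for the sum of all transcripts and not for Adam17-201.

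*Timp2*, the inhibitor that also helps MMP14 to activate MMP2, was the only TIMP that could be read. Its 1 listed transcript, Timp2-201, had 53, 36 and 57 reads, or 5.82, 4.87 and 7.40 RPM. The mOC-AB library was the highest and the pOC-AB library the lowest, but the intervals of all 3 comparisons included 0. On the log2 scale G1 was -0.26 (-0.91 to 0.38), G2 was 0.34 (-0.22 to 0.91) and G3 was 0.60 (-0.02 to 1.25). Its nearest genes were *Xpr1*, *Npepps* and *Naa80*, at distances of 0.011, 0.016 and 0.017. They had 1246, 853 and 1339 reads (*Xpr1*), 891, 600 and 952 (*Npepps*), and 506, 346 and 539 (*Naa80*). *Cep295nl* lies within the span of *Timp2*.

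Counted together on gene sums, *Mmp9* was the only 1 of the 5 members with at least 20 reads that was past the limit. It was higher in G1, G2 and G3. With protein-coding transcripts only, *Adam17* also passed the limit upwards, at 2.86-fold in G1 and 3.16-fold in G2. Among all genes with at least 20 reads, the shares past it upwards were 4.81%, 4.12% and 3.48%, those past it downwards 6.04%, 8.97% and 6.81%, and those past it in either direction 10.8%, 13.1% and 10.3% (G1, G2 and G3). Over the 7 members with rows, 2 were higher and 1 lower in G1 (*Mmp9* and *Mmp14*, against *Mmp12*), and the same held for G2. In G3 1 was higher, and *Mmp12* had no fold. Folds were formed for 14011, 13988 and 13792 of all genes with rows. Of these, 7.09%, 6.04% and 5.42% were past the limit upwards, 8.85%, 12.1% and 9.65% downwards, and 15.9%, 18.2% and 15.1% in either direction. The 7 members had median log2 ratios of -0.25, 0.05 and 0.26, beside -0.02, -0.05 and -0.05 for genes with at least 20 reads. Scaling by the total of the mRNA and lncRNA tables moved these all-gene medians to -0.22, -0.15 and 0.05. It also moved the share of upward calls in G1 from 44.4% to 26.8% and put the *Adam17* sum past the limit there (log2 -1.15).

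**Figure D4:**
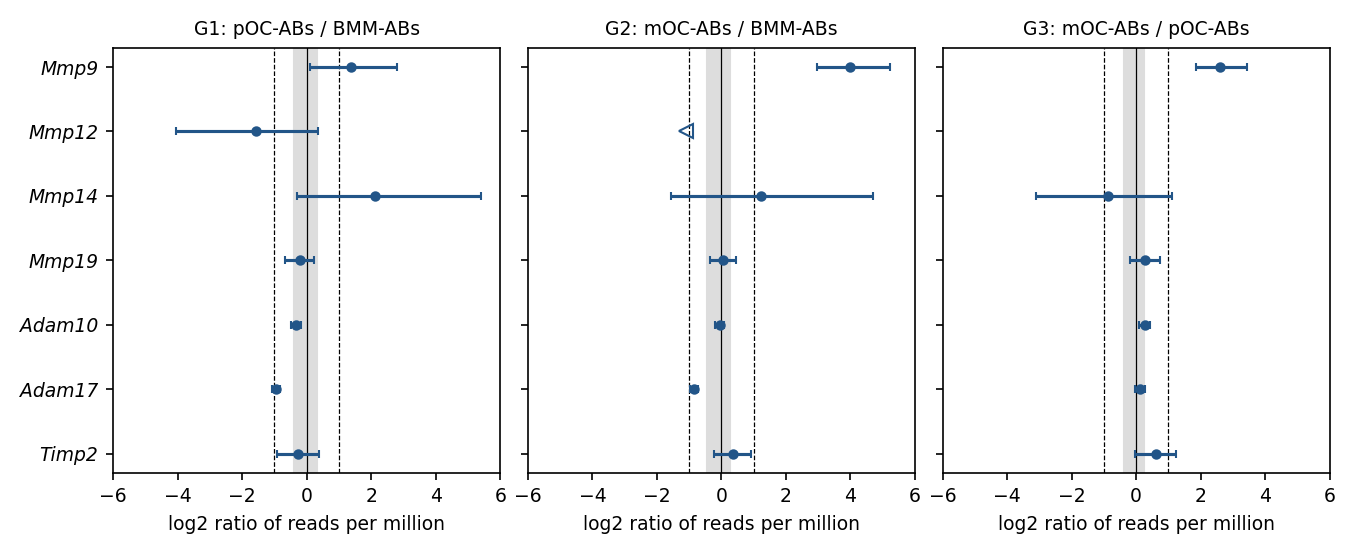
Log2 ratios of RPM with 95% counting intervals for the 7 genes in G1 (pOC-ABs over BMM-ABs), G2 (mOC-ABs over BMM-ABs) and G3 (mOC-ABs over pOC-ABs); dashed lines mark the 2-fold limits, the grey band the quartiles of all genes with at least 20 reads, and the open triangle a bound. *Mmp9* at 3.98 in G2 lies far outside the band, and *Adam10* and *Mmp19* lie within or at its edge in each panel.

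The other genes of these families and their partners were followed as fixed lists. Of 111 related genes, 49 had rows and 36 had at least 20 reads. In G1, 14 of the 36 were past the limit downwards (38.9%) and 1 upwards, and in G2, 19 were lower (52.8%) and 0 higher. In G3 3 were lower (*Mmp28*, *Adamts1* and *Notch1*) and 1 higher (*Plau*). Over all genes with at least 20 reads, the shares were 6.04%, 8.97% and 6.81% downwards and 4.81%, 4.12% and 3.48% upwards. The median log2 ratios of the 36 related genes were -0.81, -1.02 and -0.04, beside -0.02, -0.05 and -0.05 for all those genes. The related genes were thus mostly lower in both RANKL libraries than in BMM-ABs. Macrophage markers were lower in the same comparisons, with 2 of 7 past the limit in G1 and 6 of 7 in G2, and their part in this was not tested.

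Few other MMPs were seen. 3 of 19 had rows, and *Mmp8*, *Mmp13* and *Mmp3* were among the 16 without. *Mmp28*, or epilysin, had 28, 13 and 0 reads. Against a floor of 3 reads mOC-ABs were at least 7.90-fold lower than the 28 reads of BMM-ABs, and the exact interval of the log2 ratio, which includes their counting error, reached up to -2.59. *Mmp23* had 8, 2 and 0 reads, and *Mmp2*, or gelatinase A, had 5 reads in pOC-ABs only. None of the 4 other inhibitors listed (*Timp4*, *Reck*, *A2m* and *Pzp*) had a row.

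The other ADAMs were lower together. Of the 5 with at least 20 reads, 4 were past the limit downwards in G1 and 4 in G2. *Adam4* (54, 7 and 6 reads) and *Adam1a* (33, 4 and 8 reads), better known from the testis, were past it in both on few reads. *Adam8*, a protease of myeloid cells, had 2386, 820 and 1121 reads and was 2.36-fold lower in G1 and 1.80-fold lower in G2. *Adam15* had 1987, 780 and 688 reads (2.07- and 2.45-fold lower), and *Adam9* had 885, 382 and 366 reads (1.88- and 2.05-fold lower). Of the ADAMTS proteases, the secreted relatives, *Adamts10* had 575, 228 and 209 reads (2.05- and 2.33-fold lower). *Adamts1*, which cuts proteoglycans, had 166, 90 and 24 reads and was 5.86-fold lower in G2 and 3.91-fold lower in G3. *Adamts13*, which cuts von Willebrand factor, had 18, 11 and 13 reads, none of its ratios being past the limit.

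The proteins that ripen or place these enzymes gave 1 of 14 past the limit upwards and 2 downwards in G1, and 4 downwards in G2. The 1 higher gene was *Tspan10*, a tetraspanin that binds ADAM10, with 14, 28 and 18 reads (2.46-fold higher in G1). *Furin*, the convertase that removes the inhibitory part of ADAMs and of MMP14, had 1962, 782 and 1152 reads, 2.04-fold lower in G1 and 1.44-fold lower in G2. *Rhbdf2*, or iRhom2, which carries ADAM17 to the cell surface in myeloid cells, had 1105, 527 and 317 reads and was 2.95-fold lower in G2. *Cd44*, a surface anchor of MMP9 and itself shed by ADAM10, had 2009, 998 and 717 reads and was 2.37-fold lower in G2. *Plau*, the urokinase at the head of plasmin-driven MMP activation, stood out with 642, 266 and 1060 reads. It was 3.82-fold higher in mOC-ABs than in pOC-ABs, the only related gene past the limit upwards in G3. Its receptor *Plaur* had 658, 188 and 161 reads and was 3.46-fold lower in G2, opposite in sign to *Plau*. *Bsg*, the MMP inducer basigin, had 1664, 856 and 1279 reads and did not pass the limit.

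Substrates of ADAM10 and ADAM17 were lower in the main. Of 14 with at least 20 reads, 7 were past the limit downwards in G1 and 9 in G2, and 0 upwards. *Tnf*, the substrate that gave ADAM17 its first name, had 1529, 1013 and 645 reads and was 2.01-fold lower in G2. *Tnfrsf1b*, a receptor for it, had 703, 181 and 138 reads and was 4.31-fold lower. *Csf1r*, the M-CSF receptor and also a macrophage marker, had 9870, 2640 and 3902 reads, 3.03-fold lower in G1 and 2.14-fold in G2. *Il6ra* (944, 245 and 366 reads), *Trem2* (2823, 1116 and 1090), *Notch2* (3963, 1355 and 1557) and *App* (1953, 709 and 488) were lower by 2.05- to 3.39-fold in both. *Notch1* had 80, 21 and 9 reads and was 7.53-fold lower in G2. *Tnfrsf11a*, which encodes RANK, the receptor of RANKL, had 657, 386 and 603 reads and was 1.08-fold higher in G2.

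**Figure D5:**
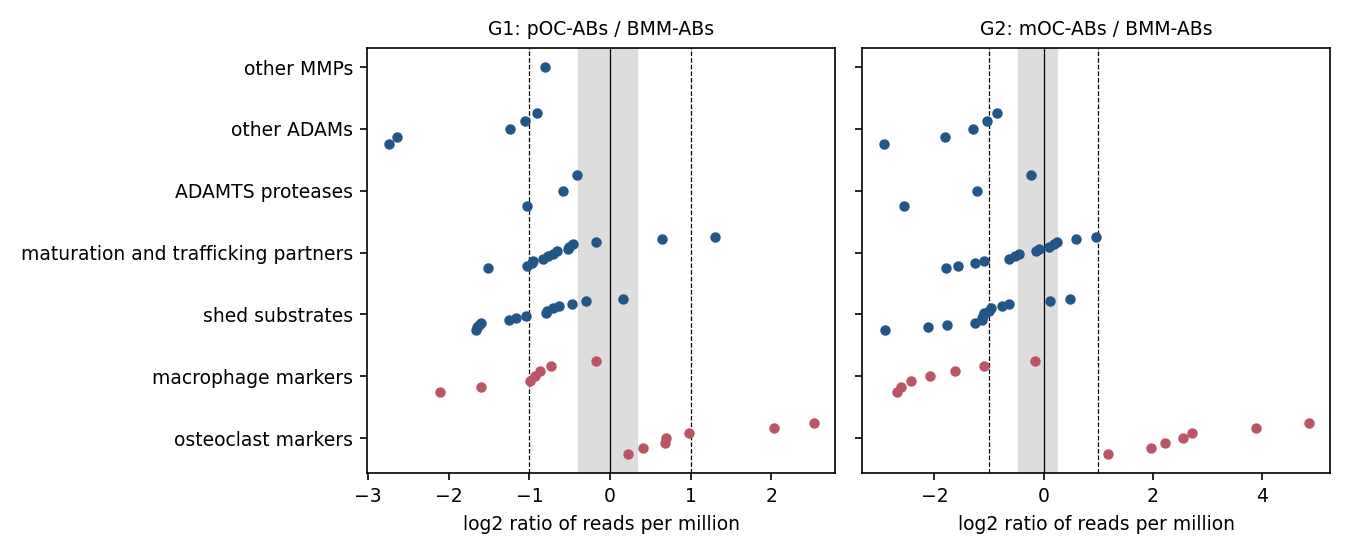
Log2 ratios of RPM in G1 (pOC-ABs over BMM-ABs) and G2 (mOC-ABs over BMM-ABs) for genes with at least 20 reads in the lists of related genes (blue) and of markers (red); each point is a gene, dashed lines are the 2-fold limits and the grey band holds the quartiles of all genes. Genes with 0 reads in a library (*Mmp28* in mOC-ABs and *Oscar* in BMM-ABs) are not drawn where their ratio needs it. Other ADAMs and shed substrates lie mostly left of 0 with the macrophage markers, and osteoclast markers lie right of it.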

How the data were processed

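The authors' polyA-selected paired-end libraries had been turned into 3 deposited tables of mRNA transcripts, lncRNAs and circRNAs. Per the file headers the mRNA and lncRNA tables give read counts and FPKM, and the circRNA table gives counts of junction reads. The deposited FPKM of the mRNA table are scaled to that table's own total, so its total was also used for RPM. HISAT2, StringTie, FastQC and GRCm38 are named in the submitters' processing notes, and versions are not given in the sources used here. Transcripts were matched by Ensembl ID to GENCODE M21 (56422 of 56651 found). No column of samples was left unused. Single rows of the lncRNA and circRNA tables were used only at the loci of the members. The lncRNA total also entered the alternative scaling by both tables.

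Reads were summed per gene. Ratios carry exact (Clopper-Pearson) binomial intervals, levels exact Poisson intervals and transcript shares Wilson intervals, each at 95%. No fold was formed where both libraries had 3 reads or fewer, and a fold against 0 used 3 reads as floor. Medians used a pseudocount of 0.5 reads. With 1 library per group no test across genes was possible, and the fold limit of 2 was the study's. The members and lists were chosen with earlier results of these data known. Named were all members, the main transcripts (at least 10% of the gene's reads in some library and 20 reads in all), and related genes past the limit with at least 100 reads or among the 3 highest of their list by FPKM. The 3 genes nearest in G1 and G2 were named for the 3 members of widest range. Some genes that these rules pick are not reported here. *Tnfrsf11a*, *Tspan10*, *Adam1a*, *Adam4*, *Itgb3* and *Calcr* were named after their values were seen. Alternatives covered scaling (both tables, median of ratios, TMM, upper quartile), FPKM with pseudocounts of 0.1 and 1, protein-coding transcripts only, filters of none and 100 reads, and a limit of 1.5. The interval script was tested on simulated data. Tools were Python 3.11.15, pandas 2.3.3, scipy 1.17.1, statsmodels 0.14.6, matplotlib 3.10.9, R 4.3.3 and edgeR 4.0.16 (TMM factors only).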

Additional observations from a re-analysis of the deposited data

How the results depend on the processing

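Direction changed for the *Adam17* gene sum, which turned to 1.52 in G1 and 1.66 in G2 (log2) with protein-coding transcripts only. The share of Adam17-203 in BMM-ABs was 75.3% by FPKM. Members past the limit numbered 3 in G1 and 3 in G2, against 0 and 1 by FPKM with a pseudocount of 1. With protein-coding transcripts only they numbered 4 in G1 and 4 in G2, with *Adam17* among those upwards. In G3 they numbered 1, against 3 at a limit of 1.5. All genes past the limit numbered 1375, 1660 and 1304 in G1, G2 and G3. They were 767, 983 and 638 with at least 100 reads, 3735, 3772 and 3042 at a limit of 1.5, 2233, 2541 and 2078 with no filter, and 723, 964 and 660 by FPKM with a pseudocount of 1. Related genes numbered 15 in G1, against 27 at a limit of 1.5 and 23 with no filter. In G3 they numbered 4, against 10 at a limit of 1.5, 9 with no filter, 7 with protein-coding transcripts only and 2 by FPKM with a pseudocount of 1. The cause was not tested. *Mmp9* stayed above 0 in every alternative, at 0.42 to 1.49 in G1, 1.92 to 4.16 in G2 and 1.51 to 2.69 in G3. Depth limits *Mmp12* and *Mmp14*, with 11 reads or fewer in each library. No paired analysis was possible because each group is 1 library.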
